A study of Mus musculus with 18 samples.

Results

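The genes described here encode the receptor complex through which brain endothelial cells receive the Wnt7 and Norrin signals: Fzd4, Fzd6, Lrp5, Lrp6, Tspan12, Adgra2, Reck and Ctnnb1. All 8 were found by symbol among the 21638 genes of the deposited table, each in 1 row, and all 8 passed the filter on low counts (at least 10 counts in at least 3 libraries) that 17094 genes passed. The cells were endothelial cells of the adult mouse brain cortex, gated by flow cytometry on CD31 and against the blood cell markers CD41 and CD45, and their mRNA was sequenced in 18 libraries. Sham mice and mice with middle cerebral artery occlusion (MCAO), a surgical model of ischaemic stroke, are labelled WT and gave 3 libraries each from the ipsilateral (operated) and contralateral side. Mice labelled Hdac2 ECKO (Hdac2lox/lox:Cdh5CreERT2) and Ezh2 ECKO (Ezh2lox/lox:Cdh5CreERT2) had MCAO too and gave 3 ipsilateral libraries each. Every library is labelled with tamoxifen at 75 mg per kg, given in 5 doses, and cells were taken on day 7 of stroke. The recombinase is driven by the Cdh5 promoter, which is active in endothelial cells, and is switched on by tamoxifen. Whether the WT mice carried the recombinase or a floxed allele is not stated, and the labels do not say that the replicates came from separate animals, so p-values measure the spread between these libraries, which may be technical.

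Wnt7a and Wnt7b reach brain endothelium from neural cells. Reck, a membrane-anchored glycoprotein, binds these ligands, and Adgra2, an adhesion G protein-coupled receptor also called Gpr124, joins Reck to a Frizzled receptor. Fzd4 is the Frizzled that also binds Norrin, with the tetraspanin Tspan12 as its helper, and Lrp5 and Lrp6 are the co-receptors of both ligands. Fzd6 is a further Frizzled, best known from planar cell polarity. Ctnnb1 encodes beta-catenin, which receptor activation spares from degradation so that it can act with TCF and LEF factors in the nucleus, and which also links cadherins to the cytoskeleton at cell junctions. The pathway is needed to form and keep the blood-brain barrier.

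The promoters of 4 of the 8 genes were in the RefSeq promoter table used here (build GRCm38.p6): Tspan12, Reck and Ctnnb1, whose levels differed most in the libraries labelled Ezh2 ECKO, and Fzd4, the partner receptor, whose level did not pass the test there. The 250 bases before each start are shown 5′ to 3′ on the strand of the gene, with each CG dinucleotide in capitals. For Ctnnb1 the first of its 2 starts in the table is shown.
Tspan12, chr6:21852534-21852783, minus strand: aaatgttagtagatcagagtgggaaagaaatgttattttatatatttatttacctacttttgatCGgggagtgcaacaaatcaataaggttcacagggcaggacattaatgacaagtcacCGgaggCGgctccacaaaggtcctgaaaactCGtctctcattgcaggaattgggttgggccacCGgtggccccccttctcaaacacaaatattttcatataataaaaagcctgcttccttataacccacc
Reck, chr4:43875280-43875529, plus strand: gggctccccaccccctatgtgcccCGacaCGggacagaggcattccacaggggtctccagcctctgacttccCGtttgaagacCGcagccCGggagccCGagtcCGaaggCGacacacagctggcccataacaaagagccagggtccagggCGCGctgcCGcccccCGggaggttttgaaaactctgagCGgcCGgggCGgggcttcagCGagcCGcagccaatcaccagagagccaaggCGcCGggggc
Fzd4, chr7:89404116-89404365, plus strand: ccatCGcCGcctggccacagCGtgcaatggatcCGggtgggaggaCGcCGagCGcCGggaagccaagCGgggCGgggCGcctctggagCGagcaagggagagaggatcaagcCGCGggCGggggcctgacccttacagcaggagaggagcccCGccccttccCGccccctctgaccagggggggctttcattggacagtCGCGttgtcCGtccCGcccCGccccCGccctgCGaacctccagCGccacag
Ctnnb1, chr9:120933150-120933399, plus strand: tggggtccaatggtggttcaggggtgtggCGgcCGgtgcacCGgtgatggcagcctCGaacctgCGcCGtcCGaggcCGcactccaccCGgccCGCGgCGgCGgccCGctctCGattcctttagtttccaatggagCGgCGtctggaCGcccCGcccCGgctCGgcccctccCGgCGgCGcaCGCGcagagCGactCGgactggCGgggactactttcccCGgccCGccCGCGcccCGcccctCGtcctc

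The windows differ in base composition. Tspan12 holds 5 CG dinucleotides, near the median of 6 over 32851 promoter windows, and its GC content is 42.0%. Reck holds 19, Fzd4 25 and Ctnnb1 35, and 19.7%, 10.7% and 2.97% of all windows hold as many or more. CTTTG, the core of the sequence that TCF and LEF factors bind, was searched on both strands. It matches once in the Tspan12 window, starting 116 bases before the start, and once in the Reck window, 119 bases before. The Fzd4 and Ctnnb1 windows hold no match, and 48.6% of all windows of this length hold at least 1. Such a match is a description of the letters and not evidence of binding.

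The libraries held between 25791401 and 57576255 counts. Levels are in CPM, counts per 1000000 of a library total scaled by the TMM method, and a mean ± SD is taken over the 3 libraries in a group. Sums over lists of genes are instead per 1000000 of the unscaled library total. MCAO contralateral replicate 1 and Ezh2 ECKO replicate 2 stood apart: their median correlations with the other libraries were 0.787 and 0.821, against 0.872 or more for each of the others, and they held 1889 and 2083 CPM on 1466 olfactory and vomeronasal receptor genes, taken as diffuse background, against 152 to 716 CPM elsewhere. The 12 endothelial markers summed to between 10160 and 23227 CPM in every library, while neuronal markers summed to at most 238 CPM, pericyte and smooth muscle markers to 221, oligodendrocyte markers to 141, astrocyte markers to 92.1 and microglia and macrophage markers to 23.3 CPM. The 4 globin genes of red cells summed to as much as 199484 CPM. The levels of the targeted genes did not check the labels. Hdac2 averaged 76.8 ± 16.8 CPM under the Hdac2 ECKO label against 82.9 ± 14.0 CPM in MCAO ipsilateral, and Ezh2 averaged 13.4 ± 5.76 CPM under the Ezh2 ECKO label against 6.44 ± 1.77 CPM. A count over a whole gene need not show the loss of single floxed exons, so these groups are named by their labels throughout.

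The 8 genes differed widely in level. Per kilobase of exon, the mean over the 18 libraries was 219.6 CPM for Ctnnb1, the highest, and 56.6 for Tspan12 and 48.8 for Fzd6. Reck followed at 23.4 CPM per kilobase and Fzd4 at 14.0. Of the co-receptors, Lrp6 stood at 7.13 CPM per kilobase and Lrp5 at 0.429, the lowest of the 8. Adgra2, the partner of Reck, stood at 3.15 CPM per kilobase. Among the 17094 genes tested, ranked by CPM, Ctnnb1 was at percentile 99.5 and Lrp5 at percentile 43.1. The ratio of the highest to the lowest library was 2.55 for Fzd4 and 2.74 for Fzd6, the steadiest of the 8, and 11.1 for Adgra2, the most uneven. Counts of Lrp5 ran from 67 to 443 per library and those of Adgra2 from 97 to 1256, so these were the genes with the fewest reads. When the 6 groups were ordered by mean for each gene, neighbouring groups overlapped throughout, except that all 3 sham contralateral libraries were above all 3 MCAO contralateral libraries for Ctnnb1.

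**Figure D1:**
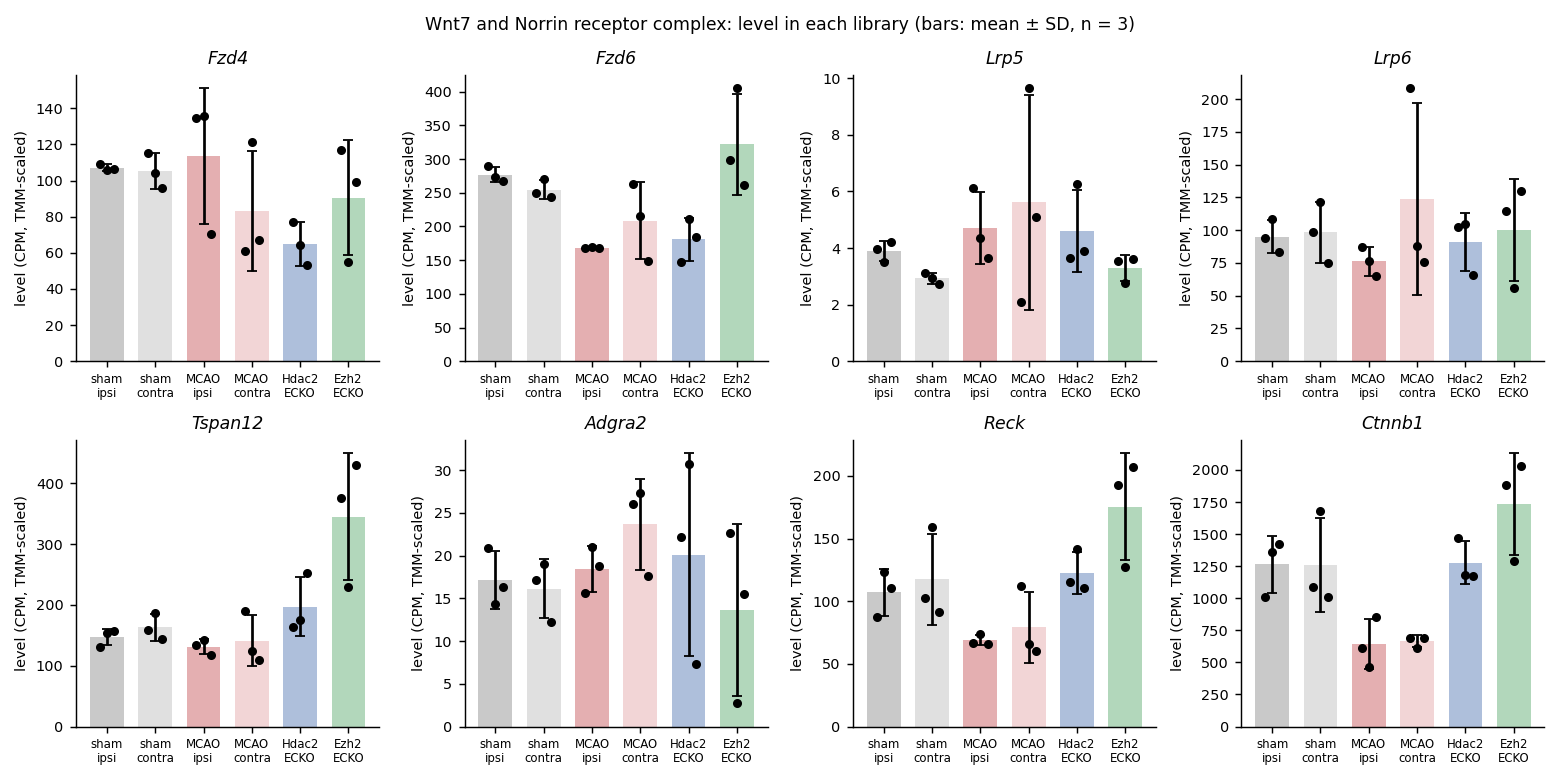
Level of each of the 8 genes (CPM, vertical axis, starting at 0) in each of the 18 libraries (points), by group, with bars for the group mean and whiskers for the SD of 3 libraries; ipsi and contra are the sides, and the groups labelled Hdac2 ECKO and Ezh2 ECKO are ipsilateral after MCAO. Tspan12, Reck and Ctnnb1 reach their highest values in the libraries labelled Ezh2 ECKO, and Lrp5 stays between 2.10 and 9.65 CPM.

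The libraries labelled Ezh2 ECKO were compared with MCAO ipsilateral libraries, which asks how the complex differs after occlusion when endothelial Ezh2, the methyltransferase of Polycomb repressive complex 2, is targeted. Of the 8 genes, 3 rose and 0 fell: Ctnnb1, Tspan12 and Reck, each between 2.55-fold and 2.70-fold higher. Over all 17094 genes, 1.46% were called in this comparison (250 genes), and 0.228% were called higher (39 genes). The 250 became 5 without MCAO ipsilateral replicate 1 or 2, 8 without Ezh2 ECKO replicate 3 and 24 without Ezh2 ECKO replicate 2. They became 183 without Ezh2 ECKO replicate 1, with 0 of the 8 called, and 298 without MCAO ipsilateral replicate 3, with 1 of the 8 called. At an unadjusted p under 0.05, 4 of the 8 were higher, as 8.51% of all genes were. Groups did not overlap for 5 of the 8 (4 higher, 1 lower), against 29% of all genes. The median log2 fold change over the 8 was 0.66, beside 0.17 over all genes tested. Because the 8 were chosen with earlier results of these data known, these shares carry no test.

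Tspan12, the Fzd4 helper (chr6:21771395-21852515, minus strand, mm10), stood at 134, 142 and 117 CPM in MCAO ipsilateral libraries. In the libraries labelled Ezh2 ECKO it stood at 376, 229 and 429.6 CPM. All 3 were above every MCAO ipsilateral library, and also above every sham library (132 to 187 CPM). The log2 fold change was 1.39 ± 0.31 (SE; 95% interval 0.75 to 2.04), with an adjusted p-value of 0.0356 in edgeR's quasi-likelihood test.

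Reck, the Wnt7 binder (chr4:43875530-43944806, plus strand), stood at 67.0, 73.6 and 66.0 CPM in MCAO ipsilateral libraries, a narrow group. It stood at 193, 127 and 207 CPM in the libraries labelled Ezh2 ECKO, all above the MCAO ipsilateral and sham ipsilateral libraries. The lowest of these, 127 CPM, was below sham contralateral replicate 2, at 159 CPM. The log2 fold change of Reck against MCAO ipsilateral was 1.35 ± 0.32 (95% interval 0.68 to 2.02; edgeR adjusted p-value 0.0434).

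Ctnnb1, the effector of the pathway (chr9:120929216-120960507, plus strand), stood at 612, 464 and 851 CPM in MCAO ipsilateral libraries. Under the Ezh2 ECKO label its values were 1883, 1287 and 2032 CPM, and the groups did not overlap. The log2 fold change was 1.43 ± 0.31 (95% interval 0.78 to 2.08; edgeR adjusted p-value 0.0324). This gene's count cannot be taken as its own, because 759 of its 5192 exonic bases, 14.6%, are also exons of Ulk4, a kinase-family gene on the opposite strand (chr9:120955351-121277197). The strand setting of the counting is not given in the sources used here, so reads of the pair cannot be told apart.

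Ulk4 followed Ctnnb1 in every library. Its count was between 66.0% and 85.8% of the Ctnnb1 count, with a median of 73.9%, and it was the gene most like Ctnnb1 of 7814 searched (Pearson r 0.996 over 18 libraries). The Ulk4 count was also higher in the libraries labelled Ezh2 ECKO, by a log2 value of 1.61 ± 0.33 (edgeR adjusted p-value 0.0291). The shared bases are 8.93% of the 8503 exonic bases of Ulk4. How many reads counted for Ulk4 came from Ctnnb1 was not tested, so a rise of Ulk4 of its own was not shown. With the Ulk4 count subtracted from that of Ctnnb1, a lower estimate chosen after the values were seen, 184 ± 34.4 CPM were left in MCAO ipsilateral and 337 ± 95 in the libraries labelled Ezh2 ECKO. The log2 fold change of Ctnnb1 was then 0.87 ± 0.30, and the adjusted p-value of 0.126 no longer passed. Of the other 7 genes, Fzd6, Tspan12 and Adgra2 share between 73 and 152 exonic bases with a gene on the opposite strand, at most 3.15% of their exons. The gene that overlaps Adgra2, Brf2, had 36.2% to 235.7% of the Adgra2 count, with a median of 60.4% (Pearson r of log2 counts 0.705). Whether Adgra2 and Brf2 share reads was not tested.

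**Figure D2:**
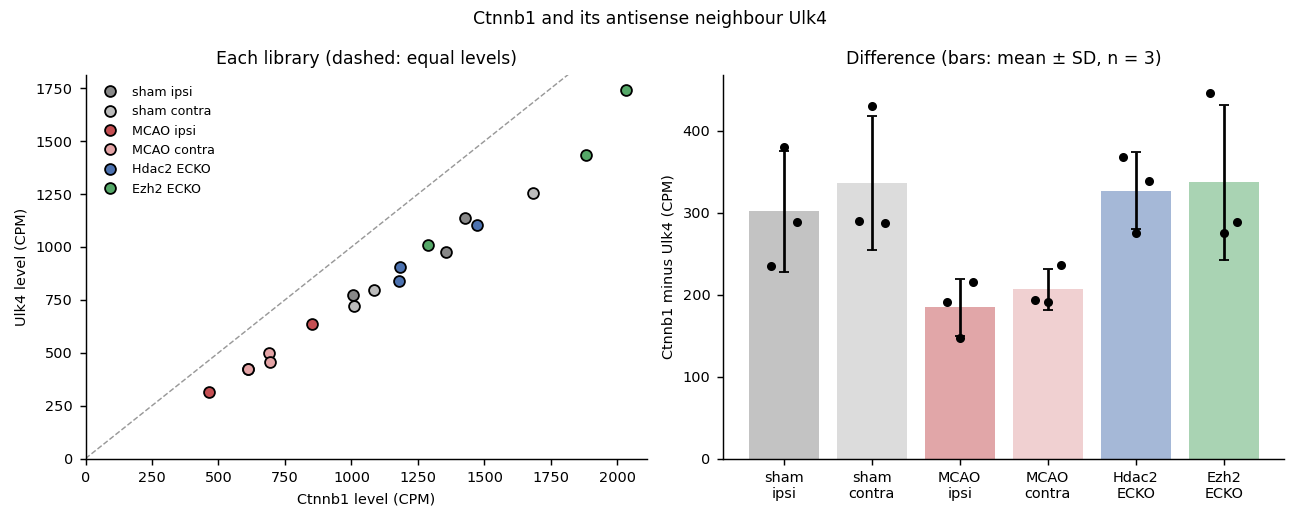
Left: level of Ulk4 (CPM, vertical axis) against level of Ctnnb1 (CPM, horizontal axis) in each of the 18 libraries, coloured by group, with equal levels as a dashed line. Right: Ctnnb1 minus Ulk4 (CPM) in each library (points), with the group mean and SD of 3; the points on the left lie along 1 line (Pearson r 0.996), and on the right the libraries labelled Ezh2 ECKO average 337 CPM and MCAO ipsilateral 184 CPM.

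The other Frizzled, Fzd6 (chr15:39006034-39038188, plus strand), missed the threshold in this comparison. It stood at 168, 169.8 and 169 CPM in MCAO ipsilateral libraries and at 299, 405 and 261 CPM in the libraries labelled Ezh2 ECKO, with no overlap. The log2 difference was 0.93 ± 0.28 (95% interval 0.35 to 1.51; unadjusted p 0.00317, edgeR adjusted p-value 0.0827). DESeq2 called it, at 1.15 with an adjusted p-value of 0.0165, among 1617 genes that DESeq2 called. Its highest value, 405 CPM, was in Ezh2 ECKO replicate 2, which stood apart.

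Fzd4, the Norrin receptor (chr7:89404355-89413134, plus strand), stood at 135, 136 and 70.3 CPM in MCAO ipsilateral libraries and at 117, 55.2 and 99.1 CPM in the libraries labelled Ezh2 ECKO. The groups overlapped, and the log2 difference was -0.33 ± 0.35 (95% interval -1.06 to 0.40; edgeR adjusted p-value 0.594). The co-receptor Lrp6 (chr6:134446476-134566965, minus strand) gave 0.40 ± 0.39, with an interval from -0.41 to 1.20. Its relative Lrp5 (chr19:3584828-3686564, minus strand) gave -0.51 ± 0.67. Adgra2 (chr8:27085583-27123436, plus strand) gave -0.43 ± 0.59, with 2.76 CPM in Ezh2 ECKO replicate 2 and 22.7 and 15.5 CPM in the other two. The intervals of Lrp5 and Adgra2, from -1.91 to 0.89 and from -1.66 to 0.79, leave room for changes of either sign.

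The calls of Ctnnb1, Tspan12 and Reck depended on single libraries. None of the 8 was called when MCAO ipsilateral replicate 1 or 2, or Ezh2 ECKO replicate 1 or 3, was left out. Ctnnb1 alone was called without MCAO ipsilateral replicate 3, and Tspan12 and Ctnnb1 without Ezh2 ECKO replicate 2. Across these 6 fits the log2 fold change ran from 1.17 to 1.60 for Tspan12, from 1.18 to 1.52 for Reck and from 1.24 to 1.65 for Ctnnb1. Their largest adjusted p-values were 0.171, 0.190 and 0.206. Without both MCAO contralateral replicate 1 and Ezh2 ECKO replicate 2, the libraries that stood apart, all 3 were called. With the replicate number as a block, 0 of the 8 were called. The edgeR adjusted p-values were then 0.0601 for Ctnnb1, 0.0649 for Tspan12 and 0.0706 for Reck.

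Several measures moved with this comparison. Diffuse background was 154 to 296 CPM in MCAO ipsilateral and 268 to 2083 CPM under the Ezh2 ECKO label, and with its log2 level as a covariate 0 of the 8 were called (Tspan12 1.27, adjusted p-value 0.0976; Reck 1.20, 0.112; Ctnnb1 1.43, 0.0679). Each gene's deviation in a library from its mean over libraries was set against its GC content, and the rank correlation over genes was 0.297 to 0.379 in MCAO ipsilateral and -0.296 to -0.130 in the libraries labelled Ezh2 ECKO. With that trend removed, Tspan12, whose exons have the lowest GC content of the 8 at 40.5%, differed by 1.07 (adjusted p-value 0.0574), and Reck and Ctnnb1 stayed called. The 12 endothelial markers summed to 17221 to 23227 CPM in MCAO ipsilateral and 10160 to 11498 CPM in the libraries labelled Ezh2 ECKO. None of the 12 was at 0, and 1 of them (Ly6c1) fell. With TMM scaling, Ly6c1 alone stood at 16050, 17722 and 9770 CPM in MCAO ipsilateral and at 4312, 2614 and 3724 CPM under the Ezh2 ECKO label. Of the 12, 5 had a log2 difference above 0, and the median was -0.51. The 4 globin genes summed to 37849 to 57770 CPM and to 93.2 to 653 CPM, and all 4 fell. The 10 pericyte and smooth muscle markers summed to 37.1 to 111 CPM and to 40.4 to 187 CPM, with 0 called. The neuronal markers summed to 129.7 to 161 CPM and to 46.0 to 84.2 CPM, with 0 called. Stmn2 held most of that sum (135, 181 and 125 CPM against 46.4, 57.1 and 77.0 CPM with TMM scaling). Of the 5 neuronal markers tested, 3 had a log2 difference above 0, with a median of 0.57. Of the 5 oligodendrocyte markers tested, 4 were above 0 and 1 (Gpr17) fell. Gpr17 stood at 12.5, 35.3 and 4.11 CPM in MCAO ipsilateral and at 0, 0.171 and 0.0559 CPM under the Ezh2 ECKO label. The part of these marker differences in the results was not tested. In sorted bulk RNA, fewer cells of a type and less RNA per cell cannot be told apart. Under RLE scaling the median of all genes in this comparison moved from 0.17 to 0.36. Relative to that median, Tspan12, Reck and Ctnnb1 differed by 1.22, 1.18 and 1.26 with TMM and by 1.20, 1.16 and 1.25 with RLE.

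**Figure D3:**
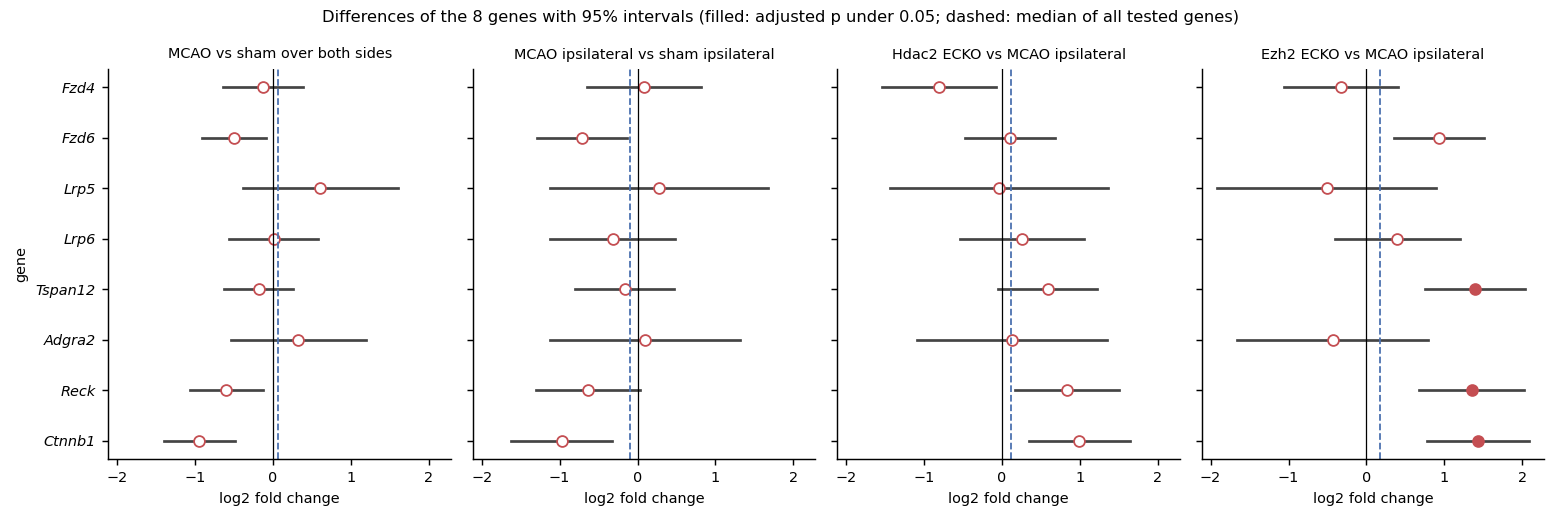
Log2 fold change (horizontal axis) of the 8 genes (vertical axis) in 4 comparisons, with 95% intervals from the edgeR fit as lines; filled points have an adjusted p-value under 0.05, and the dashed line is the median of all 17094 genes tested. Filled points appear only in the comparison of the libraries labelled Ezh2 ECKO with MCAO ipsilateral, for Tspan12 (1.39), Reck (1.35) and Ctnnb1 (1.43).

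The libraries labelled Hdac2 ECKO were compared with the same MCAO ipsilateral libraries, so the comparisons of both ECKO labels share these controls. Of the 8 genes, 0 were called by edgeR, where 0.0117% of all genes were (2 of 17094), and 3 had an unadjusted p under 0.05, as 9.85% of all genes did. DESeq2 and limma-trend called 0 of the 8. Ctnnb1 stood at 1473, 1181 and 1177 CPM, above every MCAO ipsilateral library (464 to 851 CPM), with a log2 difference of 0.99 ± 0.31 (adjusted p-value 0.394). Its difference was 0.83 ± 0.30 with the Ulk4 count subtracted. Reck stood at 115, 141 and 110.3 CPM against 66.0 to 73.6 CPM, a difference of 0.83 ± 0.32 (adjusted p-value 0.431). Tspan12 stood at 163, 175 and 253 CPM, also above all MCAO ipsilateral libraries, with a difference of 0.59 ± 0.31 (adjusted p-value 0.545). Groups did not overlap for these 3 of the 8, all higher, as was so for 9.54% of all genes in that direction. The 12 endothelial markers summed to 10964 to 12984 CPM under the Hdac2 ECKO label, below the MCAO ipsilateral libraries (17221 to 23227 CPM), with 0 called. Of the 12, 5 had a log2 difference above 0, and the median was -0.22. With TMM scaling, Ly6c1 alone stood at 8426, 9321 and 5311 CPM under this label and at 16050, 17722 and 9770 CPM in MCAO ipsilateral. The globin genes summed to 54053 to 199484 CPM against 37849 to 57770 CPM, and the GC correlation was -0.185 to 0.101 against 0.297 to 0.379. Their part in these differences was not tested.

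Fzd4 lay lower in this comparison, at 77.3, 64.2 and 53.2 CPM. These values overlapped with the MCAO ipsilateral range of 70.3 to 136 CPM, and the log2 difference was -0.81 ± 0.35 (unadjusted p 0.0324, edgeR adjusted p-value 0.476). Fzd6 differed by 0.10 ± 0.28, Lrp6 by 0.26 ± 0.39, Lrp5 by -0.04 ± 0.67 and Adgra2 by 0.12 ± 0.59, and none of these passed. Adgra2 was again uneven, with 7.32 CPM in replicate 3 against 22.2 and 30.8 CPM in the other two.

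A direct comparison of the libraries labelled Hdac2 ECKO with those labelled Ezh2 ECKO called 0 of the 8 by edgeR, DESeq2 and limma-trend, where edgeR called 0.123% of all genes. Of the 8, 2 were lower in the former at an unadjusted p under 0.05, as 4.25% of all genes were, and groups did not overlap for Fzd6 and Lrp5, against 12.1% of all genes. Fzd6 was lower in all 3 libraries labelled Hdac2 ECKO (148, 211 and 184 CPM), by a log2 value of -0.83 ± 0.28 (unadjusted p 0.00724, adjusted 0.264). Tspan12 differed by -0.81 ± 0.31 (unadjusted p 0.0153, adjusted 0.314), and the groups overlapped. Ctnnb1 differed by -0.44 ± 0.31 and Reck by -0.52 ± 0.32, so a difference between the ECKO labels was not shown for any of the 3 genes that rose under the Ezh2 ECKO label. The differences of Fzd4, Lrp5, Lrp6 and Adgra2 lay between -0.48 and 0.56. All 4 globin genes were called in this comparison, higher under the Hdac2 ECKO label, and their part in it was not tested.

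Occlusion alone was examined by MCAO against sham, on each side and over both sides. On the ipsilateral side 0 of the 8 were called by edgeR, DESeq2 or limma-trend, where edgeR called 0% of all genes. DESeq2 called 71 genes there and limma-trend 3 or 1. A fit of edgeR to only these groups called 74 genes, and 0 of the 8. Of the 8, 2 were lower at an unadjusted p under 0.05, as 2.81% of all genes were. Groups did not overlap for Fzd6, Reck and Ctnnb1, all lower after MCAO, as was so for 14.4% of all genes. Ctnnb1 stood at 1007, 1357 and 1425 CPM in sham ipsilateral libraries and at 464 to 851 CPM in MCAO ipsilateral, a log2 difference of -0.98 ± 0.31 (unadjusted p 0.00489, adjusted 0.542). Fzd6 stood at 289.5, 274 and 267 CPM in sham ipsilateral against 168 to 169.8 CPM, a difference of -0.72 ± 0.28 (unadjusted p 0.0179, adjusted 0.641). Reck stood at 87.1, 123 and 110.4 CPM in sham ipsilateral, and its difference was -0.64 ± 0.32 (unadjusted p 0.0600, adjusted 0.707). Fzd4, Tspan12, Adgra2 and the co-receptors differed by between -0.32 (Lrp6) and 0.27 (Lrp5). The 10 pericyte and smooth muscle markers summed to 146 to 209 CPM in sham ipsilateral and 37.1 to 111 CPM in MCAO ipsilateral, and 1 of the 10 had a log2 difference above 0, with 0 called. Over both sides 0 of the 10 were above 0, with a median of -1.20. On the ipsilateral side the 12 endothelial markers summed to 14034 to 16896 CPM in sham and 17221 to 23227 CPM in MCAO. Of the 12, 6 were above 0, with a median of -0.04. The microglia and macrophage markers summed to 4.85 to 8.80 CPM and to 8.50 to 19.8 CPM, with 5 of 6 tested above 0. On both lists 0 were called. The part of these markers in the values of the 8 genes was not tested.

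On the contralateral side 0 of the 8 were called by any of the 3 tools. Here edgeR again called 0% of all genes, while DESeq2 called 26 genes. At an unadjusted p under 0.05, 1 of the 8 was lower, as 1.76% of all genes were. That gene was Ctnnb1, at 1086, 1684 and 1009 CPM in sham contralateral and 691, 613 and 692 CPM in MCAO contralateral. The groups did not overlap, which held for 6% of all genes in that direction, and the log2 difference was -0.92 ± 0.31 (unadjusted p 0.00728, adjusted 0.920). Reck stood at 103, 159 and 91.0 CPM in sham contralateral and at 112, 66.0 and 60.0 CPM in MCAO contralateral, where replicate 1, which stood apart, gave the highest value. Lrp6 in MCAO contralateral stood at 208, 88.3 and 75.7 CPM, again with replicate 1 far above the others. Without the 2 libraries that stood apart its difference moved from 0.33 to -0.27, neither of which passed. The differences of Fzd4, Fzd6, Tspan12, Adgra2 and Lrp5 also did not pass, and the largest of the 8 above 0 was that of Lrp5, at 0.94 ± 0.68.

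Over both sides together, 0 of the 8 were called by edgeR, where 0.152% of all genes were (26 of 17094), and 3 were lower at an unadjusted p under 0.05, as 3.57% of all genes were. The labels do not say whether the libraries of the 2 sides came from the same mice, and the test takes them as independent, so it may rest on fewer animals than libraries. Ctnnb1 was lower in all 6 MCAO libraries than in all 6 sham libraries, which was so for 1% of all genes in that direction. Its log2 difference was -0.95 ± 0.22 (95% interval -1.40 to -0.49; unadjusted p 0.000296, adjusted 0.0803). DESeq2 called Ctnnb1, at -0.91 with an adjusted p-value of 0.0122, among 334 genes, and limma-trend called 0 of the 8. Leaving out MCAO ipsilateral replicate 3 or MCAO contralateral replicate 1 brought the edgeR value to 0.0420 or 0.0379, and leaving out any of the other 10 libraries gave adjusted p-values of up to 0.316, none of which passed. With the Ulk4 count subtracted the difference was -0.71 ± 0.21 (adjusted p-value 0.209). Reck differed by -0.60 ± 0.23 (adjusted p-value 0.364) and Fzd6 by -0.50 ± 0.20 (adjusted 0.403). Without both libraries that stood apart, Reck was called as well, at -0.78 with an adjusted p-value of 0.0346, and Ctnnb1 at -0.98 with 0.0215. That fit called 498 genes. In the main fit none of the following genes passed. Fzd4, Tspan12, Adgra2 and the co-receptors differed by between -0.19 (Tspan12) and 0.61 (Lrp5).

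Neither side comparison separated the complex. MCAO ipsilateral against MCAO contralateral, sham ipsilateral against sham contralateral, and the difference between these side differences each called 0 of the 8 by edgeR, DESeq2 and limma-trend. In each, edgeR called 0% of all genes and DESeq2 called 6 genes. At an unadjusted p under 0.05 there were 0 of the 8 in each, where 3.08%, 1.85% and 3.38% of all genes passed. The smallest unadjusted p was 0.0837, for Lrp6 between the sides after MCAO (-0.70 ± 0.39), and the other 7 side differences after MCAO reached from -0.36 for Adgra2 to 0.45 for Fzd4. In sham mice the side differences of the 8 ran from -0.15 for Tspan12 to 0.41 for Lrp5, which stood at 3.96, 3.50 and 4.23 CPM ipsilaterally and 3.12, 2.93 and 2.74 CPM contralaterally. These did not overlap, as was so for 8.44% of all genes in that direction, and the interval ran from -0.99 to 1.81. The differences between these side differences lay between -0.67 (Lrp5) and 0.43 (Fzd4).

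Both groups with an ECKO label were also set beside sham ipsilateral libraries, which the occlusion comparison uses too. In the libraries labelled Ezh2 ECKO, 0 of the 8 were called by edgeR, against 0.041% of all genes, and 2 were higher at an unadjusted p under 0.05, as 2.64% of all genes were. The same 2, Tspan12 and Reck, did not overlap with sham, as was so for 5.55% of all genes in that direction. Tspan12 was above every sham ipsilateral library (132, 153 and 156 CPM), with a log2 difference of 1.23 ± 0.31 (unadjusted p 0.000668, adjusted 0.381). DESeq2 called it, at 1.34 with an adjusted p-value of 0.0241, among 193 genes that DESeq2 called. Without both libraries that stood apart edgeR called it too (1.46, adjusted 0.0231), among 26 genes. Of the 8, limma-trend called 0. Reck differed by 0.71 ± 0.32 (adjusted p-value 0.742) and Ctnnb1 by 0.46 ± 0.31 (adjusted 0.907), and the other 5 lay between -0.33 (Adgra2) and 0.22 (Fzd6). In the libraries labelled Hdac2 ECKO 0 of the 8 were called by any of the 3 tools. There edgeR called 0% of all genes, DESeq2 236 genes and limma-trend 4 or 3. At an unadjusted p under 0.05, 1 of the 8 was lower, as 2.6% of all genes were. That gene was Fzd6, at -0.61 ± 0.28 (adjusted p-value 0.651). Fzd4 was below every sham ipsilateral library there (109, 106 and 106 CPM), with a difference of -0.72 ± 0.35 (unadjusted p 0.0532). Groups did not overlap for Fzd4, Fzd6 and Tspan12 (0.42 ± 0.31), against 15.3% of all genes. Ctnnb1 differed by 0.02 ± 0.31, and Lrp5, Lrp6, Adgra2 and Reck by between -0.06 (Lrp6) and 0.24 (Lrp5).

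Ratios within a library do not depend on its scaling. They were chosen after the values were seen and carry no test. Per base of exon, Tspan12 exceeded Fzd4, its receptor, by 2.44 to 2.99 times in sham ipsilateral, 2.78 to 3.63 in sham contralateral and 2.02 to 3.39 in MCAO ipsilateral. The ratio was 4.28, 5.55 and 9.64 in the libraries labelled Hdac2 ECKO and 6.53, 8.41 and 8.80 in those labelled Ezh2 ECKO, so all 6 lay above every sham and MCAO ipsilateral library. MCAO contralateral replicate 1, which stood apart, had 6.31, and the other two had 2.08 and 3.34. Fzd6 exceeded Fzd4 by 3.01 to 3.70 times in the 6 sham libraries and by 1.73, 1.74 and 3.35 times in MCAO ipsilateral. The range was 2.47 to 6.00 in MCAO contralateral, 2.67 to 4.83 under the Hdac2 ECKO label and 3.56 to 10.2 under the Ezh2 ECKO label, where replicate 2 was the highest. Reck exceeded Adgra2, with which it acts, by 4.24 to 5.18 times in MCAO ipsilateral, 2.91 to 5.19 in MCAO contralateral, 5.03 to 10.4 in sham ipsilateral and 7.24 to 10.1 in sham contralateral. That ratio was 6.28, 5.55 and 18.2 under the Hdac2 ECKO label and 10.2, 55.7 and 16.1 under the Ezh2 ECKO label, the highest values falling where Adgra2 was lowest. Lrp6 exceeded Lrp5 by at least 6.52 times in every library.

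**Figure D4:**
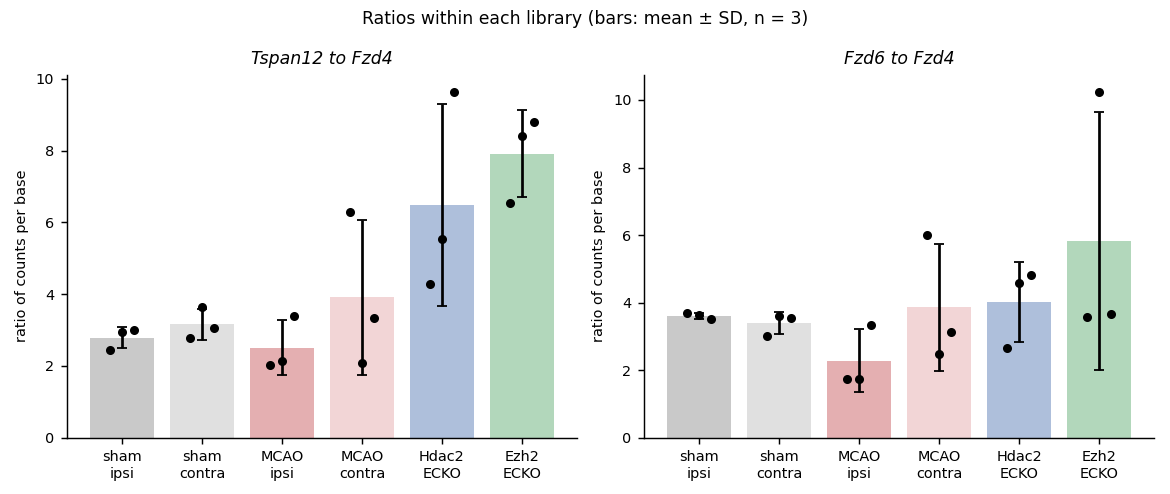
Ratio of Tspan12 to Fzd4 (left) and of Fzd6 to Fzd4 (right), each as counts per base of exon (vertical axis, starting at 0), in each library (points) by group, with the mean and SD of 3. On the left the libraries with an ECKO label lie between 4.28 and 9.64, above the sham and MCAO ipsilateral libraries at 2.02 to 3.63, with MCAO contralateral replicate 1 at 6.31.

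The likeness of patterns was described by the correlation of log2(CPM + 1) over the 18 libraries, which share their depth and background. Among pairs of the 8, Reck was most like Ctnnb1 and Tspan12 (Pearson r 0.865 for each), and Tspan12 and Ctnnb1 gave 0.687. With group means removed, the 3 values were 0.536, 0.746 and 0.322. Fzd4 was unlike all of these, at between -0.120 and -0.091. Of the 7814 genes that averaged 10 CPM or more, those most like Reck were Calcrl, a receptor subunit for adrenomedullin (0.923), and Cpd, a carboxypeptidase (0.907). After Ulk4, the gene most like Ctnnb1 was Kdr, the VEGF receptor (0.949). For Tspan12 they were E2f5 (0.890) and Eml5 (0.880), for Fzd4 Ube2h (0.829) and Becn1 (0.806), and for Fzd6 Scaf8 (0.861) and Mbtd1 (0.850). Lrp6 was most like Sav1 (0.898) and Sf3a1 (0.861), Lrp5 like the small heat shock protein gene Hspb8 (0.783) and the AP-1 gene Jund (0.739). Adgra2 was most like Odc1, of polyamine synthesis (0.897), and the co-chaperone gene Bag3 (0.895). Without the 2 libraries farthest from the median, those for Adgra2 fell to 0.618 and 0.627, and Eml5 to 0.653.

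The ligands themselves had few counts in most libraries. Wnt7a had between 0 and 20 counts per library and was not tested. Wnt7b had 0, 168 and 448 counts in MCAO ipsilateral libraries and 4 in each sham ipsilateral library, and over both sides its log2 difference was 5.82 ± 1.43 (edgeR adjusted p-value 0.110). Ndp, which encodes Norrin, had at most 68 counts.

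Lists of other genes of the pathway put the complex in context. The 8 genes and these lists were chosen with earlier results of these data known, so their counts of calls are not a test of the complex. In the libraries labelled Ezh2 ECKO against MCAO ipsilateral, 1 gene of 121 tested on 8 lists was called. It was Tnfrsf19, a Wnt target of brain endothelium, among 16 targets and barrier genes, and it rose by 1.24 ± 0.31 (edgeR adjusted p-value 0.0499). Tnfrsf19 stood at 101, 72.3 and 153 CPM in MCAO ipsilateral and at 233, 219 and 317 CPM in the libraries labelled Ezh2 ECKO, with no overlap. It was also the 1 listed gene that fell over both sides after MCAO, by -1.12 ± 0.22 (adjusted p-value 0.0406), from 159 to 229.5 CPM in the 6 sham libraries to 60.9 to 153 CPM in the 6 MCAO libraries. Both calls were lost when single libraries were left out. The first held only without MCAO ipsilateral replicate 3, and leaving out any of the other 5 libraries gave adjusted p-values for Tnfrsf19 of up to 0.288. The second held only without MCAO ipsilateral replicate 3 or MCAO contralateral replicate 1 or 3, and leaving out any of the other 9 libraries gave values of up to 0.171. On the same list, the glucose transporter gene Slc2a1 differed by -1.10 ± 0.33 (adjusted p-value 0.0793) in the libraries labelled Ezh2 ECKO, and the list median was 0.03.

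No gene was called on the other 7 lists in that comparison. Among 18 cytoplasmic genes, the destruction complex scaffold Apc differed by 1.42 ± 0.40 (adjusted p-value 0.0649) and Csnk1e by -0.96 ± 0.37 (0.163), with a list median of 0.09. Of 17 inhibitors, Ctnnbip1, which blocks beta-catenin from binding TCF factors, differed by -1.42 ± 0.41 (0.0750), and Znrf3, which removes Frizzled receptors, by 1.44 ± 0.48 (0.115). Their list had the highest median of the 8, at 0.81. Of 15 nuclear partners, Cdc73 differed by 1.33 ± 0.37 (0.0622) and Lef1 by 1.46 ± 0.47 (0.0991). Of 16 other receptors, Fzd1 differed by 1.65 ± 0.68 (0.190) and Adgra3 by 1.04 ± 0.54 (0.292). Of 9 adherens junction partners of beta-catenin, Ptprb differed by 0.75 ± 0.28 (0.154) and Afdn by 0.76 ± 0.31 (0.194). Of 16 other tetraspanins, Tspan31 differed by -1.75 ± 0.46 (0.0567) and Tspan4 by -1.70 ± 0.53 (0.0896), and the list median was -0.36, on the other side of 0 from Tspan12. Of 14 ligands and secretion genes, Wls, which carries Wnt proteins to the surface, differed by 0.61 ± 0.30 (0.265), and Rspo3 by 3.44 ± 2.04 (0.348).

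**Figure D5:**
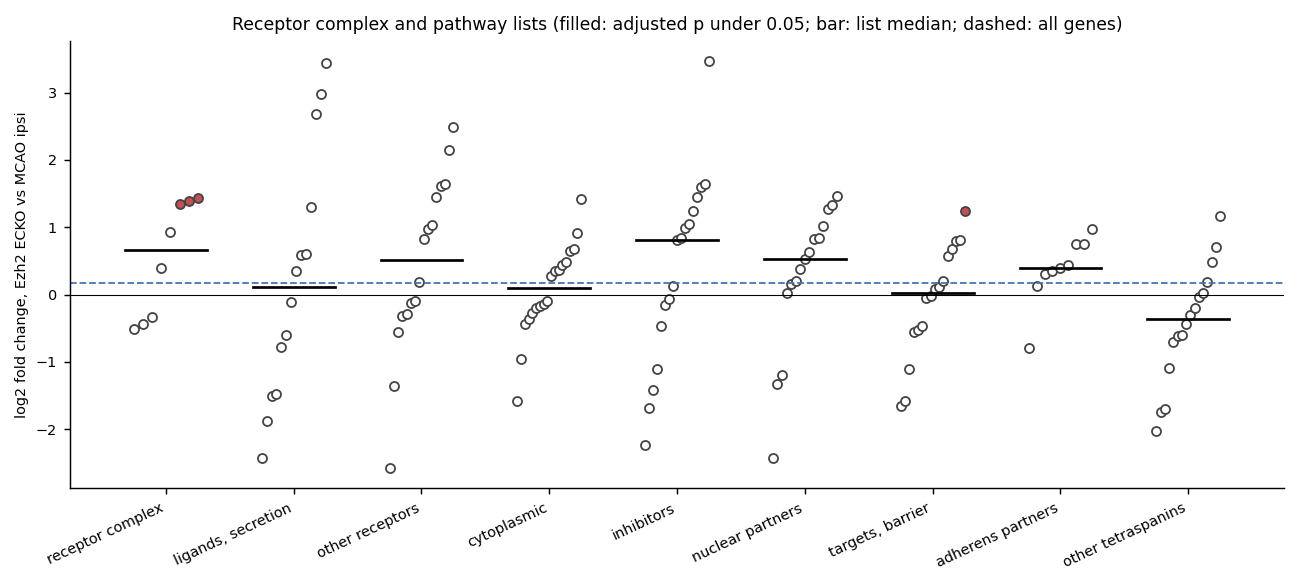
Log2 fold change of the libraries labelled Ezh2 ECKO against MCAO ipsilateral (vertical axis) for the 8 genes of the complex and the tested genes of 8 pathway lists (horizontal axis), 1 point a gene; filled points have an edgeR adjusted p-value under 0.05, bars are list medians and the dashed line is the median of all genes, 0.17. Filled are Tspan12, Reck and Ctnnb1 of the complex and Tnfrsf19 among the targets and barrier genes.

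In the remaining comparisons no gene of the 8 lists was called. Over both sides after MCAO, the uncalled genes with the smallest unadjusted p on their lists included Slc2a1 (0.81 ± 0.23, adjusted p-value 0.185), the adherens junction gene Cdh2 (-1.38 ± 0.38, 0.170), the Wnt inhibitor Apcdd1 (-0.89 ± 0.25, 0.166), the TCF family gene Tcf7 (-0.82 ± 0.24, 0.194) and the R-spondin receptor Lgr6 (3.52 ± 1.06, 0.209). Of the 9 adherens junction partners, 0 had a value above 0 there, and their median was -0.32 beside 0.06 for all genes. For the Hdac2 ECKO label against MCAO ipsilateral, the inhibitor Dkk2 (5.26 ± 1.37, 0.273), Slc2a1 (-1.19 ± 0.33, 0.304) and Mfsd2a, a lipid transporter of the barrier (-0.87 ± 0.32, 0.426), had the smallest unadjusted p of the listed genes. Between the 2 ECKO labels, Apc differed by -1.60 ± 0.40 (0.108), lower in the libraries labelled Hdac2 ECKO.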

How the data were processed

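Sequenced fragments of 18 libraries were analysed as counts per gene. Although the deposited table is named as normalized, its values are unscaled whole counts, mostly even, as when both mates of a pair are counted. The submitters' processing notes name FastQC, cutadapt, STAR, featureCounts, DESeq2 and mm10. The annotation and strand setting are not given in the sources used here. Groups and replicate numbers came from the titles. Genes with at least 10 counts in at least 3 libraries were tested with edgeR 4.0.16 in R 4.3.3: TMM scaling, a quasi-likelihood F-test on 6 group means fitted to all 18 libraries, and Benjamini-Hochberg adjustment over all genes tested, called under 0.05. This was the branch of the written design for whole counts. The SE is the log2 fold change divided by the square root of F. Scripts were tested on simulated data. DESeq2 1.42.0, limma 3.58.1 and other scalings, filters and library sets were alternatives. Promoter windows are from RefSeq (GRCm38.p6), and exon overlaps from GENCODE M21. Members and gene lists were chosen with earlier results of these data known. By the naming rule, all 8 genes, up to 2 listed genes per list with the smallest p where none was called, and the 2 genes most like each member are named.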

Additional observations from a re-analysis of the deposited data

How the results depend on the processing

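Of 1768 refits of the 8 genes' differences, 109 changed sign, in 33 of 88 gene-by-comparison pairs, and 0 of these involved a called value. The number of the 8 called under the Ezh2 ECKO label against MCAO ipsilateral was 3 and became 0 with the background covariate and between 0 and 2 when 1 library was left out; DESeq2 and a filter of at least 50 counts gave 4, adding Fzd6. Over all genes that comparison called 250, against 1617 with DESeq2, 368 with RLE, 374 with upper-quartile factors, 513 with the stricter filter, 13 with the background covariate, 485 from only these groups, 1000 without both libraries that stood apart, and 403 or 421 with limma-trend, and between 5 and 298 when 1 library was left out. For MCAO against sham over both sides, 1 of the 8 was called with the background covariate or DESeq2, 2 without both libraries that stood apart, and 0 to 1 when 1 library was left out. All genes called there numbered 26, and from 0 (without sham contralateral replicate 1) to 498 (without both libraries that stood apart) under the alternatives, with 334 by DESeq2. They numbered 2 for the Hdac2 ECKO label against MCAO ipsilateral (0 to 239 under the alternatives), 21 between the ECKO labels (9 to 647) and 7 for the Ezh2 ECKO label against sham ipsilateral (3 to 193), each most by DESeq2. For the Ezh2 ECKO label against sham ipsilateral, DESeq2 and the fit without both libraries that stood apart each called 1 of the 8. Every other comparison called 0 of the 8 under every alternative run. Where no value or construction shows otherwise, the cause of a change was not tested.

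The labels do not say whether replicate numbers pair the libraries, and correlations over 3 libraries a group cannot settle it. In 0 of 15 pairs of groups were all same-numbered correlations over 0.1. In 0 of 15 did every library correlate best with its own number. Between the sides the same-numbered correlations were 0.36, 0.35 and -0.12 in sham and 0.28, 0.36 and 0.036 after MCAO. In each of these pairs 4 of 6 libraries correlated best with their own number, where all pairs ran from 0 to 5 of 6. With the replicate block, 0 of the 8 were called for the Ezh2 ECKO label against MCAO ipsilateral, at adjusted p-values of 0.0601 for Ctnnb1, 0.0649 for Tspan12 and 0.0706 for Reck, and all genes called fell from 250 to 12. The block changed no other count of the 8.

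The sign changes were of uncalled differences, and only some are listed here. Over both sides Lrp6 changed sign in 9 of 25 refits. In MCAO against sham ipsilateral Fzd4 and Adgra2 did so in 5 of 19 each. For the difference between the side differences Tspan12 did so in 8 of 25 and Reck in 7 of 25. For the Hdac2 ECKO label against MCAO ipsilateral, Lrp5 (-0.04) became 0.046 with RLE, 0.0019 with upper-quartile factors, 0.12 with no filter, 0.016 with the stricter filter, 0.17 with the background covariate, 0.026 from only these groups, 0.047 with DESeq2 and 0.31 with the GC trend removed, and Adgra2 (0.12) became -0.078 and -0.094 with limma-trend. Leaving out 1 library there gave -0.39 to 0.20 for Lrp5, -0.082 to 0.19 for Fzd6 and -0.37 to 0.48 for Adgra2. For the Ezh2 ECKO label against MCAO ipsilateral, Fzd4 became 0.027 with the background covariate, Lrp5 0.25 and Adgra2 0.45 with the GC trend removed, and Adgra2 0.071 without both libraries that stood apart and -1.01 to 0.027 when 1 was left out. Against sham ipsilateral, Adgra2 there became 0.15 without both and 0.15 with the GC trend removed, and ran from -0.91 to 0.15 when 1 was left out. For the Hdac2 ECKO label against sham ipsilateral, Ctnnb1 (0.02) became -0.057 with upper-quartile factors, -0.0044 with no filter, -0.0085 with the stricter filter and -0.0011 from only these groups, and ran from -0.15 to 0.11 when 1 was left out. Lrp6 there became 0.0052 with the background covariate and ran from -0.22 to 0.11. Lrp5 in MCAO against sham ipsilateral became -0.042 with the background covariate and -0.045 with the GC trend removed. Lrp6 on the contralateral side became -0.27 without both libraries that stood apart and ran from -0.24 to 0.59 when 1 was left out.

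With 3 libraries a group and a common biological coefficient of variation of 0.774, the 95% intervals of single genes mostly exceeded 1 log2 unit in width. The widest intervals were those of Lrp5 and Adgra2. Of 48 group levels, 46 moved by less than 1 SD under RLE scaling.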
